A study of Mus musculus with 8 samples.

Results

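Club cell secretory and detoxification genes were examined in ribosome-bound RNA of mouse lung endothelium. The 8 genes, Scgb1a1, Scgb3a1, Scgb3a2, Cbr2, Cyp2f2, Aldh1a1, Gsta3 and Retnla, were chosen by symbol, and all 8 had a row among the 23238 distinct symbols counted. Of the 8 libraries, 4 came from mice of genotype Cdh5-CreERT2;Sox17fl/fl;RPL22tm1.1Psam, in which Sox17 was deleted in endothelium and which spent 3 weeks in hypoxia. The other 4 came from control mice of genotype Cdh5-CreERT2; RPL22tm1.1Psam kept in room air for the same time. All mice were C57BL/6J, were given tamoxifen (2 mg by injection on 5 days) when 8 weeks old, and entered room air or hypoxia at 10 weeks. The recombinase is driven by the promoter of Cdh5, the VE-cadherin gene of endothelial cells, and it switches on an HA epitope tag carried by RPL22, a ribosomal protein, in both groups. Deletion and hypoxia were always combined, so their effects cannot be told apart. The sources used here do not say whether each library was a separate animal, and the file headers of Sox17-deleted hypoxic libraries 2, 3 and 4 share a stem. The p-values therefore reflect only how these libraries differ among themselves, and that spread may be technical.

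Club cells are secretory epithelial cells of the conducting airways. They release secretoglobins, small dimeric proteins of the airway lining fluid, and they carry enzymes that oxidise, reduce and conjugate inhaled compounds, which makes them a main site of xenobiotic metabolism in the mouse lung. They are not endothelial and do not express Cdh5, so their transcripts are not among those that the tag is designed to capture. Fewer cells of a type and less RNA per cell cannot be told apart in bulk libraries such as these.

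The stretches of DNA upstream of the members are shown because these are the regions where airway and stress transcription factors are known to act on such genes. Of the 8 members, 6 matched an entry in the RefSeq promoter table (GRCm38.p6), all but Scgb1a1 and Scgb3a2. Each line below gives 150 bases, beginning 250 bases before the annotated start and ending 101 bases before it, 5′ to 3′ on the gene's strand, with motif matches in capitals.
Cbr2 (chr11:120732122-120732271, minus strand): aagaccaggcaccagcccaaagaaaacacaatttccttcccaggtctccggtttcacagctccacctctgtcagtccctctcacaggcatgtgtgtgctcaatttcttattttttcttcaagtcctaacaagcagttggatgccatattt
Cyp2f2 (chr7:27119705-27119854, plus strand): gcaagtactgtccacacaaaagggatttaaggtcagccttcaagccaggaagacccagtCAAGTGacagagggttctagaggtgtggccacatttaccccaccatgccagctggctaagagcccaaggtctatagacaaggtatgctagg
Scgb3a1 (chr11:49663345-49663494, plus strand): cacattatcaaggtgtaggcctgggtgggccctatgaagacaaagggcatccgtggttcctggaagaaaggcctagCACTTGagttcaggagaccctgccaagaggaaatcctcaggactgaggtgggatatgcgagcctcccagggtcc
Gsta3 (chr1:21240335-21240484, plus strand): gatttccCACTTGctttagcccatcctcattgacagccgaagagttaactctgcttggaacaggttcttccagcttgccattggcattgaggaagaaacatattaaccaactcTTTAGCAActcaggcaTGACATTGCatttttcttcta
Retnla (chr16:48842359-48842508, plus strand): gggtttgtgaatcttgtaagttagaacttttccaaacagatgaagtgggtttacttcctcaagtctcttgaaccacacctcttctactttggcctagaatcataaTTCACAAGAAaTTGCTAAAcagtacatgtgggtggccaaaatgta
The motifs searched on both strands were CAAGTG (bound by NKX2-1, the lung epithelial homeodomain factor), TGTTTAC (FOXA), TTGCNNAA (C/EBP), TGACNNNGC (the antioxidant response element), AACAAT (SOX), ACGTG (the hypoxia response element) and TTC followed by GAA with any 4 bases between them (STAT6). The letters CAAGTG were found upstream of Cyp2f2, 191 to 186 bases before the start, of Scgb3a1, at 174 to 169 bases, and of Gsta3, at 243 to 238 bases. Of 32851 promoters in the table, 7.66% held these letters in the same window. Gsta3 also held the C/EBP letters, present in 6.22% of promoters, and those of the antioxidant response element, present in 5.29%. Retnla held the STAT6 letters at 145 to 136 bases, present in 3.75% of promoters, and the C/EBP letters at 134 to 127 bases, and these 2 matches did not overlap each other. The Cbr2 window held none of the 7 motifs. For Aldh1a1, which has 2 starts in the table, the downstream start held CAAGTG at 115 to 110 bases and the upstream start held none. The SOX letters (6.31% of promoters), the hypoxia response element letters (9.24%) and the FOXA letters (2.01%) were found in none of these windows. A match describes letters, not a bound site.

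Totals ran from 7000313 to 12913304 counts in Sox17-deleted hypoxic libraries and from 10567561 to 11884614 counts in control libraries, and levels are given as CPM, the counts of a gene scaled by the total of its library. Because the libraries sequence the 3′ end of each transcript, about 1 fragment arises per transcript, and CPM can be compared between genes without dividing by length. By the sampling of reads alone, a count of 0 allows up to 3 counts, which is 0.232 to 0.429 CPM depending on the library. Spread between libraries of a group could go far past this limit. Among Sox17-deleted hypoxic libraries 1 to 4, counts were 0, 0, 569 and 0 for the macrophage marker Cd68. For the epithelial marker Cdh1 they were 0, 782, 829 and 2148. A count of 0 to 3 therefore does not show that the level of a gene lay under this limit. Genes with at least 1 count numbered 8019 to 8708 in Sox17-deleted hypoxic libraries and 9821 to 10429 in control libraries. Sox17 had 473, 31, 6 and 41 counts in Sox17-deleted hypoxic libraries 1 to 4 and between 2442 and 3072 in control libraries, although the sources used here do not say whether the deleted part includes the sequenced 3′ end. All 12 endothelial markers passed the low-count filter. They summed to 6856 to 11886 CPM in Sox17-deleted hypoxic libraries and 8758 to 9932 CPM in control libraries.

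Among the secretoglobins, Scgb1a1 was the most abundant. It encodes the club cell secretory protein, the major secreted protein of the distal airways (chromosome 19, 9083636 to 9087958, minus strand, GRCm38). Scgb1a1 had 4185, 4407, 2250 and 2685 CPM in Sox17-deleted hypoxic libraries 1 to 4, against 1809, 1621, 886 and 1221 CPM in control libraries 1 to 4. Every Sox17-deleted hypoxic library lay above every control library. These levels made Scgb1a1 between the 8th and the 39th most counted gene in Sox17-deleted hypoxic libraries and between the 38th and the 149th in control libraries. The means were 3382 ± 1074 CPM in Sox17-deleted hypoxic libraries and 1384 ± 413 CPM in control libraries (SD, n = 4 each), and the log2 fold change was 1.28 (SE 0.34). The edgeR quasi-likelihood adjusted p was 0.346 over all genes tested.

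The other secretoglobins varied more between libraries. Scgb3a1, a small secreted protein of larger airways (chromosome 11, 49663610 to 49665118, plus strand), had 67.6, 85.1, 116 and 8.78 CPM in Sox17-deleted hypoxic libraries 1 to 4, against 22.6, 59.8, 18.4 and 45.4 CPM in control libraries 1 to 4. Sox17-deleted hypoxic library 4 held the lowest value of all and the other 3 held the highest, so the groups overlapped (log2 fold change 0.97, SE 1.05, edgeR adjusted p = 1.00). That value was 0.52 without Sox17-deleted hypoxic library 3, 1.35 without library 4 and 0.24 with limma-voom, where the median over all genes was −0.70. Scgb3a2, a secretoglobin of bronchial and bronchiolar epithelium, had 345, 133, 6.29 and 79.8 CPM in Sox17-deleted hypoxic libraries 1 to 4, against 101, 48.4, 141 and 197 CPM in control libraries 1 to 4. Its highest and its lowest value both belonged to Sox17-deleted hypoxic libraries, which spanned 54.9-fold, against 4.07-fold in controls. The log2 fold change was 0.22 (SE 0.84, edgeR adjusted p = 1.00), and it was −0.79 without Sox17-deleted hypoxic library 1, −0.05 without control library 2 and 0.61 without Sox17-deleted hypoxic library 3, so no direction can be given for Scgb3a2.

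**Figure D1:**
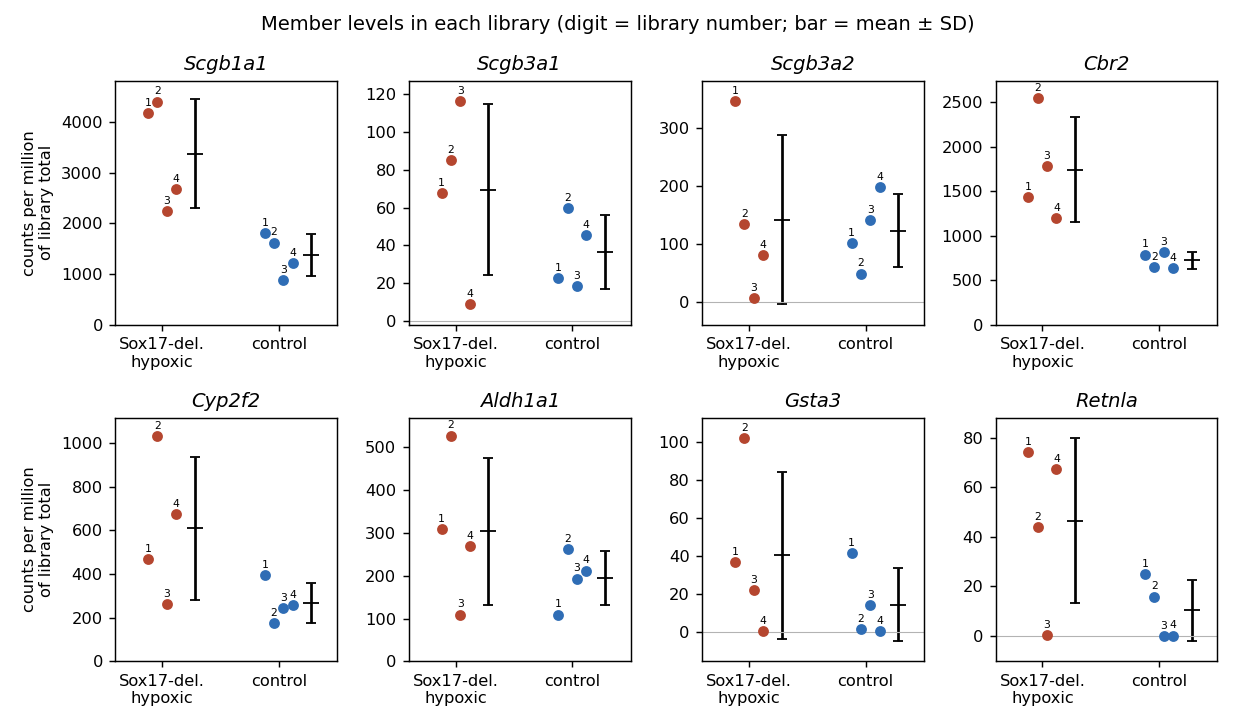
Level of each of the 8 genes in CPM of the library total, on linear axes, with Sox17-deleted hypoxic libraries in red and control libraries in blue; digits are library numbers and black bars are mean ± SD over 4 libraries. For Scgb1a1 and Cbr2 all red points lie above all blue points, while for the other 6 genes the groups overlap.

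Of the 4 enzymes, Cbr2 was the one whose groups did not overlap. Cbr2 encodes a lung carbonyl reductase that reduces aldehydes and ketones and is found in club cells and also in alveolar type 2 cells (chromosome 11, 120729489 to 120732114, minus strand). It had 1430, 2544, 1782 and 1199 CPM in Sox17-deleted hypoxic libraries 1 to 4, against 787, 646, 812 and 639 CPM in control libraries 1 to 4. The lowest Sox17-deleted hypoxic library stood above the highest control, and the control libraries spanned 1.27-fold. The means were 1739 ± 588 CPM and 721 ± 91.4 CPM in Sox17-deleted hypoxic and control libraries (SD, n = 4 each), with a log2 fold change of 1.29 (SE 0.31, edgeR adjusted p = 0.346). In the GENCODE transcripts, 35.5% of the 50-base stretches in the last 500 bases of Cbr2 also occur in Gm11771, an unprocessed pseudogene on the same chromosome, so part of the Cbr2 count could belong to that copy. For the other 7 members no such stretch occurs in transcripts of another gene.

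Cyp2f2 encodes the cytochrome P450 that activates naphthalene in mouse club cells (chromosome 7, 27119909 to 27133660, plus strand). It had 468, 1031, 262 and 675 CPM in Sox17-deleted hypoxic libraries 1 to 4, against 395, 174, 246 and 260 CPM in control libraries 1 to 4. Sox17-deleted hypoxic libraries 1, 2 and 4 exceeded all controls, while library 3 was below control library 1 (log2 fold change 1.16, SE 0.42, edgeR adjusted p = 0.589). Aldh1a1, an aldehyde dehydrogenase that oxidises retinaldehyde to retinoic acid (chromosome 19, 20492715 to 20643465, plus strand), had 309, 527, 109 and 269 CPM in Sox17-deleted hypoxic libraries 1 to 4, against 109, 262, 194 and 212 CPM in control libraries 1 to 4. Its groups overlapped only through Sox17-deleted hypoxic library 3, and the log2 fold change of 0.63 (SE 0.46, edgeR adjusted p = 1.00) was 0.28 without Sox17-deleted hypoxic library 2. Gsta3, an alpha class glutathione S-transferase that in mice conjugates the aflatoxin epoxide (chromosome 1, 21240589 to 21265661, plus strand), had 475, 966, 153 and 2 counts in Sox17-deleted hypoxic libraries 1 to 4, against 440, 13, 163 and 3 counts in control libraries 1 to 4. Each group thus held a library at or near the limit that a count of 0 allows by read sampling. The log2 fold change of Gsta3 was 1.47 with an SE of 1.94 (edgeR adjusted p = 1.00), and it ran from 0.54 without Sox17-deleted hypoxic library 2 to 2.98 without control library 1. Cyp2f2, Aldh1a1 and Gsta3 each overlap an annotated gene on the opposite strand, and the sources used here do not say how strand was treated in counting.

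Retnla encodes resistin-like alpha, also called hypoxia-induced mitogenic factor, a secreted protein of airway and alveolar epithelium and of alternatively activated macrophages in mice (chromosome 16, 48842551 to 48844461, plus strand). It had 960, 415, 3 and 753 counts in Sox17-deleted hypoxic libraries 1 to 4, against 265, 175, 0 and 1 counts in control libraries 1 to 4. Sox17-deleted hypoxic libraries 1, 2 and 4 lay above all controls. Library 3 was near the limit that a count of 0 allows by read sampling, as were 2 of the 4 controls. In CPM the means were 46.5 ± 33.4 in Sox17-deleted hypoxic libraries and 10.2 ± 12.4 in control libraries (SD, n = 4 each). The log2 fold change of 2.12 was about equal to its own SE of 2.11 (edgeR adjusted p = 1.00), and it was 4.97 with limma-voom.

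Read together, Scgb1a1 and Cbr2 were the members whose groups did not overlap, 2 of 8 higher in Sox17-deleted hypoxic libraries, where 1.63% of the 8282 genes tested did so, or 4.75% of the 1641 most abundant of them. In either direction, 6.59% of genes had groups without overlap. Leaving out Sox17-deleted hypoxic library 3 gave 5 of 8 members higher without overlap, adding Cyp2f2, Aldh1a1 and Retnla, against 3.61% of all genes. Without Sox17-deleted hypoxic library 4 it was 3 of 8, adding Scgb3a1, against 3.01%, and without control library 1 it was 3 of 8, adding Cyp2f2, against 2.16%. All 8 members passed the low-count filter and all 8 log2 fold changes were above 0, as were 49.6% of those of all genes. The median was 1.22 over the members and −0.01 over all genes tested. The genes had been proposed with results of these libraries known, so the counts describe them and carry no test.

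No member was called in the edgeR quasi-likelihood test, which called 0 of 8282 genes (0.0%) at an adjusted p of 0.05 and found 424 (5.12%) at an unadjusted p under 0.05. Scgb1a1, Cbr2 and Cyp2f2 were among the 171 of these that were higher (2.06% of genes). Other tools placed the best separated members past the threshold. DESeq2 called 469 genes, 122 of them higher (1.24%), among them Scgb1a1 (adjusted p = 0.00266) and Cbr2 (adjusted p = 0.00076). With limma-voom and sample quality weights, 14 genes were called and 9 were higher (0.109%), including Scgb1a1 (adjusted p = 0.00769) and Cbr2 (adjusted p = 0.0398). EdgeR without a low-count filter called 17 genes and 10 were higher (0.0711%), including Scgb1a1 (adjusted p = 0.00871) and not Cbr2 (adjusted p = 0.0769). The calls therefore depended on the tool, and for Scgb1a1 also on the low-count filter, while their log2 fold changes stayed between 1.11 and 1.47 for Scgb1a1 and between 1.13 and 1.45 for Cbr2 over 19 alternatives. Their adjusted p-values under these settings covered 0.00266 to 0.764 (Scgb1a1) and 0.00076 to 0.764 (Cbr2).

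**Figure D2:**
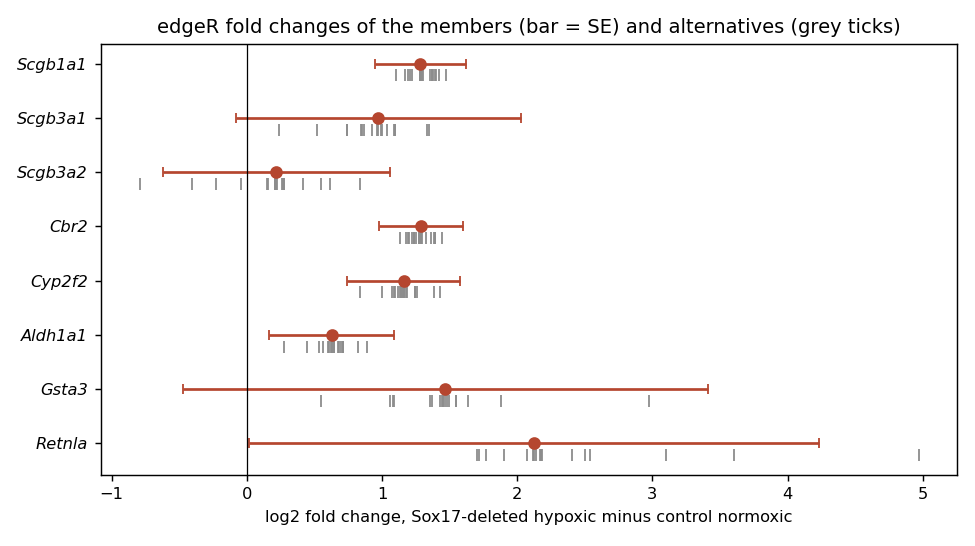
Log2 fold change of each gene (Sox17-deleted hypoxic minus control normoxic) from edgeR, as red points with bars of 1 SE, and the values under the alternative settings as grey ticks. Ticks for Scgb1a1 lie between 1.11 and 1.47 and those for Cbr2 between 1.13 and 1.45, while those for Scgb3a2 fall on both sides of 0 and those for Retnla reach 4.97.

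The order of levels was nearly the same in both groups. Scgb1a1 was highest, followed by Cbr2, Cyp2f2, Aldh1a1, Scgb3a2 and Scgb3a1, and in each of the 8 libraries Scgb1a1 exceeded Cbr2 and Cbr2 exceeded Cyp2f2. The ranges of Cbr2 and Cyp2f2 did not overlap in either group, and those of Scgb1a1 and Cbr2 overlapped in Sox17-deleted hypoxic libraries and not in controls. From Cyp2f2 downward each neighbouring pair overlapped in both groups. Retnla stood above Gsta3 by its mean in Sox17-deleted hypoxic libraries, at 46.5 and 40.3 CPM, and below it in controls, at 10.2 and 14.3 CPM, with overlapping ranges each time. Scgb1a1 and Cbr2 together made up 77.9% to 88.7% of the summed member counts in Sox17-deleted hypoxic libraries and 72.2% to 80.2% in control libraries. The 8 members summed to 6916, 8873, 4548 and 4985 CPM in Sox17-deleted hypoxic libraries 1 to 4, against 3291, 2828, 2311 and 2574 CPM in control libraries 1 to 4, so that the sum mostly followed Scgb1a1 and Cbr2.

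Ratios within a library do not depend on scaling. For every 100 counts of Scgb1a1, Cbr2 had 34.2 to 79.2 counts in Sox17-deleted hypoxic libraries and 39.9 to 91.7 in control libraries. Cyp2f2 had 11.2 to 25.2 counts per 100 of Scgb1a1 in Sox17-deleted hypoxic libraries and 10.8 to 27.7 in control libraries. Both ratios covered a similar range in the 2 groups. Aldh1a1 had 4.86 to 11.97 counts per 100 of Scgb1a1 in Sox17-deleted hypoxic libraries and 6.05 to 21.9 in control libraries. Control library 1 alone overlapped the Sox17-deleted hypoxic range for Aldh1a1. The minor secretoglobins did not keep a fixed proportion to Scgb1a1. Scgb3a2 ran from 0.279 to 8.25 counts per 100 in Sox17-deleted hypoxic libraries and from 2.99 to 16.1 in control libraries, and Scgb3a1 from 0.327 to 5.17 and from 1.25 to 3.72. The lowest Scgb3a2 ratio belonged to Sox17-deleted hypoxic library 3, which had the highest Scgb3a1 ratio, and the lowest Scgb3a1 ratio belonged to library 4.

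**Figure D3:**
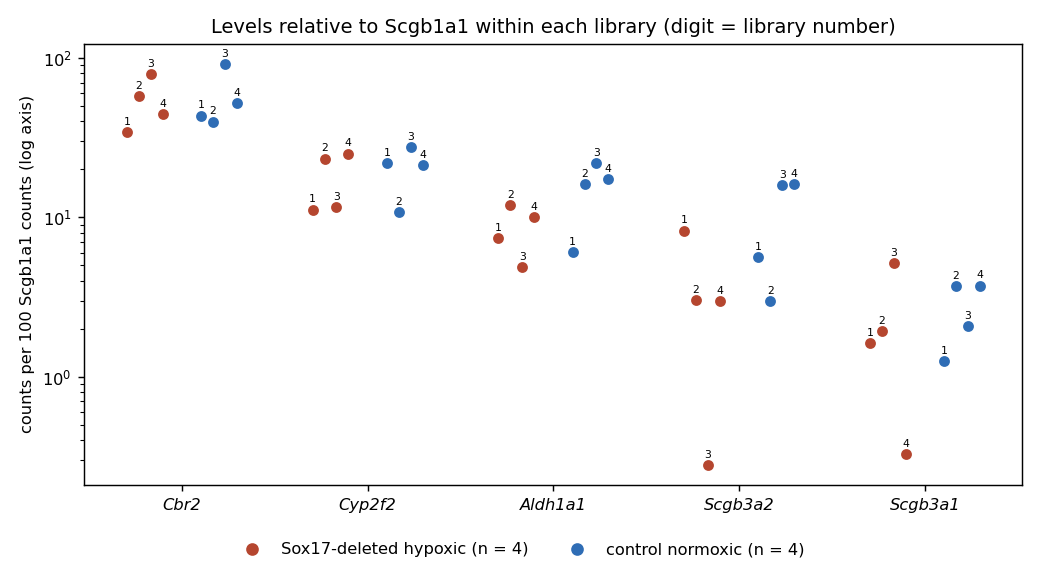
Counts of 5 genes per 100 counts of Scgb1a1 in the same library, on a log axis, with Sox17-deleted hypoxic libraries in red, control libraries in blue and digits as library numbers. Cbr2 and Cyp2f2 spread over about the same range in both groups, whereas Scgb3a2 and Scgb3a1 each have a Sox17-deleted hypoxic library far below the rest, at 0.279 and 0.327.

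Set against Sftpc, the surfactant protein C gene of alveolar type 2 cells, Scgb1a1 showed no separation between the groups. The ratio of Scgb1a1 to Sftpc counts was 4.14, 2.44, 1.95 and 2.13 in Sox17-deleted hypoxic libraries 1 to 4, against 3.94, 3.05, 1.66 and 3.22 in control libraries 1 to 4. The difference of the mean log2 ratios was −0.15 (two-sided exact permutation p = 0.686, n = 4 each), which does not show that both genes differed by the same amount. Its sign turned with Sftpb as the denominator (0.71), with the summed alveolar type 2 markers (0.031) and without control library 1 (0.0055). Sftpc itself had 1010 to 1808 CPM in Sox17-deleted hypoxic libraries and 379 to 534 CPM in control libraries. It was higher without overlap, as were 1.63% of genes tested. Against the summed endothelial markers, the ratio of Scgb1a1 was 0.398, 0.439, 0.189 and 0.392 in Sox17-deleted hypoxic libraries 1 to 4, and 0.191, 0.185, 0.0892 and 0.130 in control libraries 1 to 4. Sox17-deleted hypoxic library 3 alone overlapped the control range (difference of mean log2 ratios 1.25, two-sided exact permutation p = 0.0571, where 0.0286 is the smallest p that 4 against 4 libraries allow). Against Cdh5 alone the groups did not overlap, at 4.00 to 8.34 in Sox17-deleted hypoxic libraries and 1.05 to 2.74 in control libraries (difference 1.81, exact permutation p = 0.0286, the smallest possible). Cdh5 itself averaged 523 CPM in Sox17-deleted hypoxic libraries and 755 CPM in control libraries, with overlap, so its level adds to this difference. Scgb1a1 was proposed with results of these libraries known, so the p-values of these ratios describe the libraries and carry no test.

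Other genes of club cells were mostly sparse. Of 21 further club cell markers only 4 passed the low-count filter, 3 with a log2 fold change above 0 and 1 below, and 0 of the 4 were called. Upk3a, Scgb1c1, Lrrc26, Tff2 and Krt15 had no count in any library. The whey acidic protein family member Wfdc2 stood at 209 and 130 CPM, the selenium-binding protein Selenbp1 at 154 and 89.7 CPM and haptoglobin (Hp) at 61.1 and 31.6 CPM, as means of Sox17-deleted hypoxic and control libraries. The groups overlapped for all 3 (edgeR adjusted p = 1.00 each), and in Sox17-deleted hypoxic libraries Wfdc2 ran from 3.57 to 393 CPM and Hp from 2.57 to 114 CPM. Cyp4b1, a lung cytochrome P450, was the most abundant of the list. It had 692, 208, 3.00 and 316 CPM in Sox17-deleted hypoxic libraries 1 to 4, against 857, 866, 915 and 1096 CPM in control libraries 1 to 4. Every Sox17-deleted hypoxic library of Cyp4b1 lay below every control, as for 4.96% of genes tested (log2 fold change −1.62, SE 0.85, edgeR adjusted p = 1.00). The value of 3.00 CPM belonged to Sox17-deleted hypoxic library 3. Of its group, this library had the lowest Scgb1a1, Scgb3a2, Cyp2f2, Aldh1a1 and Retnla and the highest Scgb3a1.

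The wider set of oxidising and reducing detoxification enzymes showed no common direction. Of 24 genes, 16 passed the filter, 8 with a log2 fold change above 0 and 8 below, with a median of 0.07, and none was called. The 4 with an unadjusted p under 0.05 in edgeR, as for 5.12% of all genes tested, were split. Cyp2b10, a cytochrome P450 of xenobiotic oxidation, had means of 84.1 and 14.7 CPM in Sox17-deleted hypoxic and control libraries, and the epoxide hydrolase Ephx1 364 and 171 CPM, with groups that overlapped in both cases. Fmo1, a flavin-containing monooxygenase, averaged 386 CPM in Sox17-deleted hypoxic libraries (217 to 819) and 924 CPM in control libraries (616 to 1182), also with overlap. Aldh2, the mitochondrial acetaldehyde dehydrogenase, had 1484, 784, 1443 and 695 CPM in Sox17-deleted hypoxic libraries 1 to 4, against 2285, 2110, 1965 and 2516 CPM in control libraries 1 to 4. All Sox17-deleted hypoxic libraries were below all controls for Aldh2, as for 4.96% of genes tested (log2 fold change −0.97, SE 0.34, edgeR adjusted p = 0.574). This was the opposite direction to Aldh1a1.

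Glutathione S-transferases other than Gsta3 had 13 of 22 genes tested, 5 with a log2 fold change above 0 and 8 below (median −0.16), and none was called or free of overlap. Gstm1, a mu class enzyme and the most abundant of them, averaged 1501 ± 270 CPM in Sox17-deleted hypoxic libraries and 1806 ± 375 CPM in control libraries (SD, n = 4 each). Of the other alpha class genes, Gsta1 and Gsta2 averaged less than 0.1 CPM in both groups, and Gsta4 averaged 0.144 CPM in Sox17-deleted hypoxic libraries and 4.14 CPM in control libraries, with overlap. Around Aldh1a1, 9 of 16 retinoid pathway genes were tested, 2 above 0 and 7 below (median −0.60), with none called. Cyp26b1, which degrades retinoic acid, averaged 194 ± 137 CPM in Sox17-deleted hypoxic libraries and 219 ± 56.8 CPM in control libraries. Around Retnla, the relatives Retn and Retnlb and the cytokines Il4 and Il13 had no count in any library. The 4 tested genes of that list (Chil3, Mrc1, Il4ra and Stat6) all had log2 fold changes above 0 (median 0.95) and none was called. Il4ra, the receptor subunit shared by both cytokines, averaged 1038 ± 464 CPM in Sox17-deleted hypoxic libraries and 599 ± 240 CPM in control libraries, with overlap.

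Among markers of other cell types, the alveolar type 2 and macrophage sums did not overlap between the groups. The ciliated, the goblet and basal, and the fibroblast sums did overlap. The part of these cell types in the results above was not tested. Alveolar type 2 markers (14 of 15 tested, 12 above 0) summed to 2111 to 4368 CPM in Sox17-deleted hypoxic libraries and 994 to 1404 CPM in control libraries, without overlap. Ciliated cell markers, of which 2 of 14 were tested, summed to 401 to 1320 CPM and 345 to 515 CPM in Sox17-deleted hypoxic and control libraries, most of it from Tppp3, and Ccdc113, Pifo, Tekt1 and Tekt4 had no count. Goblet and basal cell markers reached at most 7.10 CPM in a library, and 5 of 7 had no count. Macrophage markers had 3 of 13 genes tested, none of them without overlap, and Adgre1 had no count. They summed to 99.0 to 276 CPM in Sox17-deleted hypoxic libraries and 30.1 to 93.6 CPM in control libraries. These sums did not overlap, though the nearest values were 93.6 and 99.0 CPM. In Sox17-deleted hypoxic libraries 1 to 4 the sums were 276, 235, 255 and 99.0 CPM. Single genes weighed on these sums. C1qc had 80.9 CPM in library 1 and at most 0.106 CPM in the others of that group, and Cd68 had 81.3 CPM in library 3 and 0 in the others. Retnla, also made by alternatively activated macrophages, had 74.3, 43.9, 0.429 and 67.5 CPM in Sox17-deleted hypoxic libraries 1 to 4, and its cell source was not tested. Fibroblast markers, led by Gsn, had 11 of 13 genes tested and summed to 1359 to 10315 CPM in Sox17-deleted hypoxic libraries and 1350 to 1594 CPM in control libraries.

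**Figure D4:**
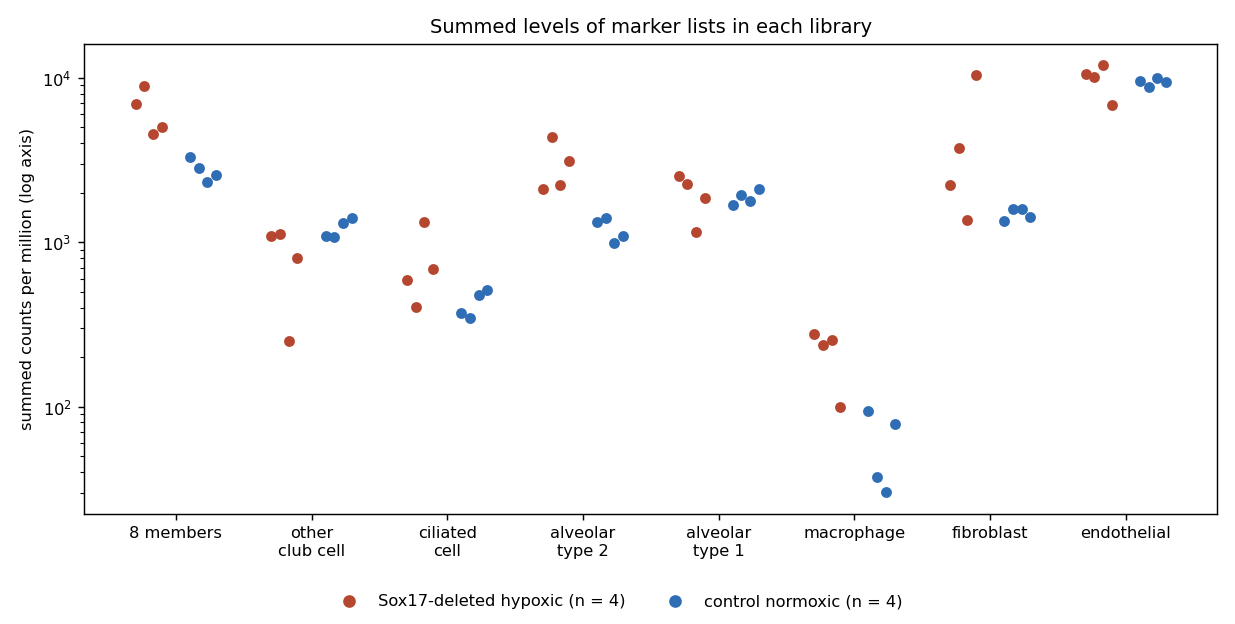
Summed CPM of the 8 genes and of marker lists in each library, on a log axis, with Sox17-deleted hypoxic libraries in red and control libraries in blue. The 8 genes, the alveolar type 2 and the macrophage markers separate without overlap, while the other club cell markers and the endothelial markers overlap between the groups. Of the mean other club cell sum, Cyp4b1 alone gives 305 of 815 CPM in Sox17-deleted hypoxic libraries and 933 of 1221 CPM in control libraries.

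Likeness of pattern was measured over the 8 libraries as the root mean square difference between centred log2(CPM + 1) profiles, among 3626 other genes averaging 50 CPM or more. Nearest to Scgb1a1 were Rpl4 (0.37), H2-Aa (0.38) and the surfactant protein gene Sftpa1 (0.38), where Cbr2 came 17th (0.46), Cyp2f2 45th (0.54), Aldh1a1 289th (0.72), Scgb3a1 1542nd (1.12) and Scgb3a2 2629th (1.70). Nearest to Cbr2 were Cdip1 (0.25), Sftpc (0.26) and Rpl13a (0.29). Cyp2f2 lay closest to Anxa9 (0.32), Trf (0.36) and Ap3d1 (0.36). Scgb3a2 lay closest to Csrnp1 (0.56), Dbnl (0.58) and Tnfrsf1a (0.59), and Scgb3a1 to Hist1h1e (0.35), Aimp1 (0.50) and Enho (0.55). The 3 secretoglobins were thus farther from each other than Scgb1a1 was from Cbr2.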

How the data were processed

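Ribosome-bound RNA of lung was immunoprecipitated through HA-tagged ribosomes and made into 3′ end libraries with a QuantSeq kit, per the labels' protocols. The authors deposited 1 table of raw read counts by gene symbol for each library. Bowtie2, bedtools and build mm10 were used, per the submitters' processing notes. How multiply mapped, duplicate or antisense reads were handled is not stated, and this could change counts of copied or overlapping genes.

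From the counts, 44 duplicate rows were summed, leaving 23238 symbols, and libraries were grouped by title. Levels are CPM of the library total. Differences were tested over all genes in R 4.3.3 with edgeR 4.0.16 (TMM factors, filterByExpr, group alone, quasi-likelihood F test, Benjamini-Hochberg adjustment, threshold 0.05). The SE is the log2 fold change divided by the square root of F. Alternatives used DESeq2 1.42.0, limma 3.58.1, other factors and filters, and libraries left out in turn. The fit code was also run on simulated counts with known folds and a set dispersion that was not taken from these libraries. That run does not show how the tools behave on these data. Gene positions come from GENCODE M21 (GRCm38). The members and lists were chosen with earlier results of these data known. Named are the 8 members, the most abundant gene of each list, called list genes, Sox17, and for each member averaging at least 50 CPM the 3 nearest profiles. Predicted genes, sex-linked genes and receptor segments were left out of the profiles, and the profiles nearest to Aldh1a1 are not reported here. Genes listed without a count, and Sftpb, Ager, Aqp5, Gsta4, Chil3, Mrc1, Stat6, Wfdc2, Selenbp1, Hp, Cyp2b10, Ephx1, Fmo1, Gsta1, Gsta2, C1qc and Cd68 were named after their values were seen.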

Additional observations from a re-analysis of the deposited data

Results flagged for a closer look

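Of 48 groups of 4 values examined, 4 held a library whose gap to its nearest neighbour exceeded the 95% critical value of Dixon's ratio, which chance gives in about 5% of such groups. None concerned the 8 members. Tppp3, a gene of ciliated cells, had 1314 CPM in Sox17-deleted hypoxic library 3, where the other 3 of that group had 367 to 512 CPM. Foxa3 had 7.10 CPM in control library 1, against 0 to 0.168 CPM in the other controls. Gsn had 8208 CPM in Sox17-deleted hypoxic library 4, against 469 to 1384 CPM in the others. The fibroblast markers summed to 10315 CPM in that library and to 2230, 3721 and 1359 CPM in Sox17-deleted hypoxic libraries 1 to 3, against at most 1594 CPM in a control library. Sox17 had 36.6 CPM in Sox17-deleted hypoxic library 1, against 0.857 to 3.67 CPM in the others, and without this library the log2 fold change was 1.17 for Scgb1a1 and 1.39 for Cbr2.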

How the results depend on the processing

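Scgb1a1, Cbr2, Cyp2f2, Aldh1a1, Scgb3a1, Gsta3 and Retnla kept log2 fold changes above 0 under every alternative run. Scgb3a2 fell below 0 with limma-voom (−0.23) and with the replicate block (−0.41). The median over all genes was also below 0 there, at −0.70 with limma-voom and −0.57 with the replicate block, against −0.01 with edgeR. Scgb3a2 lay above the median in both. As single libraries were left out, Scgb3a2 ran from −0.79 to 0.61. The number of genes called, 0 with edgeR, was 17 without a low-count filter, 4 among the 1641 most abundant genes, 469 with DESeq2, 14 with limma-voom, 1 with robust edgeR, 0 to 5 as single libraries were left out (5 without Sox17-deleted hypoxic library 1), and 1 with Sox17-deleted hypoxic libraries 2 to 4 summed, an alternative chosen after seeing the data. The genes without overlap, 546 of 8282, numbered 693 to 1157 as single libraries were left out, where fewer libraries make overlap rarer, and the members without overlap 2 to 5. The log2 difference of the Scgb1a1 to Sftpc ratio, −0.15, was 0.71 with Sftpb, 0.031 with the summed alveolar type 2 markers, and −0.41 to 0.0055 with libraries left out. That of the endothelial marker ratio, 1.25, was 1.81 with Cdh5 alone and 1.02 to 1.52 with libraries left out, where 3 against 4 libraries cannot give a p below 0.0571. No pairing by replicate number was seen. Deviations of same-numbered libraries correlated at −0.02 to 0.02 across genes, and those of differently numbered libraries at −0.02 to 0.01. Noise between libraries could hide a pairing, so these values do not exclude one. The replicate block left 0 genes called and gave −0.15 for the Sftpc ratio (exact p = 0.5, where 0.125 is the smallest possible). The cause of these shifts was not tested. At these depths a count of 0 allows 3 counts by the sampling of reads alone. Control library 4, the deepest control, had 3 Gsta3 counts and 1 Retnla count. Sox17-deleted hypoxic library 3, the shallowest of all, had 153 Gsta3 counts and 3 Retnla counts. Whether depth shaped these counts was not tested.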

Other observations

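Genes that mark lung epithelium in general stayed low beside the abundant secretory genes. Epcam, Elf3 and Cldn4 had no count in any library, and Scgb1a1 had at least 10309 counts in each. Of 15 such markers 4 passed the low-count filter, 3 with a log2 fold change above 0 and none called, and the list summed to 137 to 337 CPM in Sox17-deleted hypoxic libraries and 141 to 255 CPM in control libraries. The most abundant of them, the E-cadherin gene Cdh1, had 0, 782, 829 and 2148 counts in Sox17-deleted hypoxic libraries 1 to 4, against 1024, 302, 345 and 802 counts in control libraries 1 to 4. Sox17-deleted hypoxic library 1, with no Cdh1 count, had the second highest Scgb1a1 level of the 8 libraries. The cell source of the Scgb1a1 counts was not tested. Alveolar type 1 markers summed to 1151 to 2529 CPM in Sox17-deleted hypoxic libraries and 1688 to 2102 CPM in control libraries, with 6 of 7 tested genes above 0. Ager averaged 330 and 176 CPM and Aqp5 66.4 and 15.2 CPM in Sox17-deleted hypoxic and control libraries. Both were higher without overlap, as were 1.63% of genes tested, and neither was called by edgeR (adjusted p = 0.657 and 1.00). Their most abundant gene Emp2, the 1 below 0, averaged 1092 ± 471 CPM and 1315 ± 150 CPM in Sox17-deleted hypoxic and control libraries.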
